A study of Mus musculus with 12 samples.

Results

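Cardiopoietic (CP) cells, which are murine embryonic stem cells steered toward the heart lineage by growth factors, were compared with the same stem cells kept undifferentiated with leukemia inhibitory factor (LIF). The comparison took the 3 arrays titled CP and the 3 titled ES-LIF(+), 6 of the 12 arrays of the series, and all 45037 probe sets of the Affymetrix Mouse 430 2.0 array that are not manufacturer controls. All cells belonged to CGR8, a single murine embryonic stem cell line from the inner cell mass of the blastocyst. The ES-LIF(+) group was cultured with LIF in 7.5% serum. The CP group received bone morphogenetic protein (5 ng/ml), TGFβ (2.5 ng/ml), interleukin-13, interleukin-3 and interleukin-6 (each 100 ng/ml), IGF1 (50 ng/ml), VEGF (10 ng/ml), EGF (2.5 ng/ml) and FGF (10 ng/ml), was then held for 5 days in 3% serum with 30 ng/ml TNFα, and was enriched on a Percoll density gradient. The ES-LIF(-) group, whose values stand beside those of CP for a part of the genes, had spent 48 h without LIF in 7.5% serum. The cardiomyocyte (CM) group, shown in a plot only, was derived with the same 9 factors and came from 9 days in 20% serum and a Percoll gradient. The absence of LIF, the factors, TNFα, the serum level, the days in culture and the gradient separation all changed together between ES-LIF(+) and CP, so their parts in any difference cannot be told apart. The same holds between ES-LIF(-) and CP for the factors, TNFα, the serum level, the days in culture and the gradient.

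LIF acts through a receptor pair, LIFR with IL6ST (gp130), and the transcription factor STAT3, and it holds mouse stem cells in the naive pluripotent state by sustaining factors such as Klf4, Tfcp2l1 and Esrrb. When it is withdrawn the cells move toward a primed, epiblast-like state, from which mesoderm and then heart precursors arise under BMP, activin/nodal, FGF and WNT signals. Heart precursors are recognised by transcription factors such as Gata4, Hand2, Tbx5, Nkx2-5 and Mef2c before the sarcomere genes come on, and the developing heart also holds smooth muscle, endothelial, epicardial and stromal cells.

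Values are Microarray Suite 5.0 signals, linear brightness values that the authors scaled to the same trimmed mean on every array. The median probe set read 101.0 to 110.9 on the ES-LIF(+) arrays and 128.9 to 136.3 on the CP arrays, and signals near these medians are close to background. Differences are CP minus ES-LIF(+) in mean log2(signal + 16), given with the standard error (SE) of a limma fit and a p adjusted by Benjamini-Hochberg over all 26083 tested probe sets, and on this scale the change of a dim gene is understated. A gene was represented by its brightest probe set and was said to rise or fall when the adjusted p was under 0.05 and the fold above 1.5. Of 13145 tested genes, 2460 rose (18.7%) and 1752 fell (13.3%). The counts of gene lists below are to be read beside these shares. A count near them is no result about the list. The rises reached further than the falls: 462 genes rose and 20 fell by more than 4-fold, and 73 rose and 0 fell by more than 16-fold. Among the fallen genes, 122 had no CP array above that array's median. A probe set was tested when it was above the array median on 3 or more of the 12 arrays, which left 5048 of 18193 named genes untested. Of the tested genes, 854 had no ES-LIF(+) array above the median and entered the test through other arrays. Such genes could hardly be called lower, and 506 of them rose and 3 fell, so that counts for lists that are dim in stem cells are set in part by this filter and are given only as a description. Among these genes were 6 of 7 tested proteoglycans, 8 of 17 Hox genes, 4 of 9 mesothelial and epicardial markers, 3 of 7 caveolar genes and 6 of 16 mesenchymal factors. They also held 8 of 28 ligands and antagonists of the TGFβ family, 5 of 19 matricellular and elastic fiber genes and 4 of 11 fibroblast and stromal markers. Further members were 6 of 20 cardiac transcription factors, 7 of 21 sarcomere and natriuretic hormone genes, 6 of 15 heart channel, calcium and gap junction genes and 5 of 13 endoderm markers. Other lists held such genes as well.

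The share of calls that were rises depended on how arrays were brought to one scale. With every array centred on its own median, which removes a shift of 0.28 in log2 between the groups, 1585 genes rose and 3600 fell, and rises made up 30.6% of the calls in place of 58.4%. All 1752 falls and 1585 of the 2460 rises held there, and no call turned. The median difference over all tested genes was 0.04 on the deposited scale, -0.24 after centring and -0.09 after quantile normalization, and it is the value beside which the medians of gene lists below are to be read. In RNA from many cells, fewer cells of a type and less RNA per cell cannot be told apart.

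**Figure D1:**
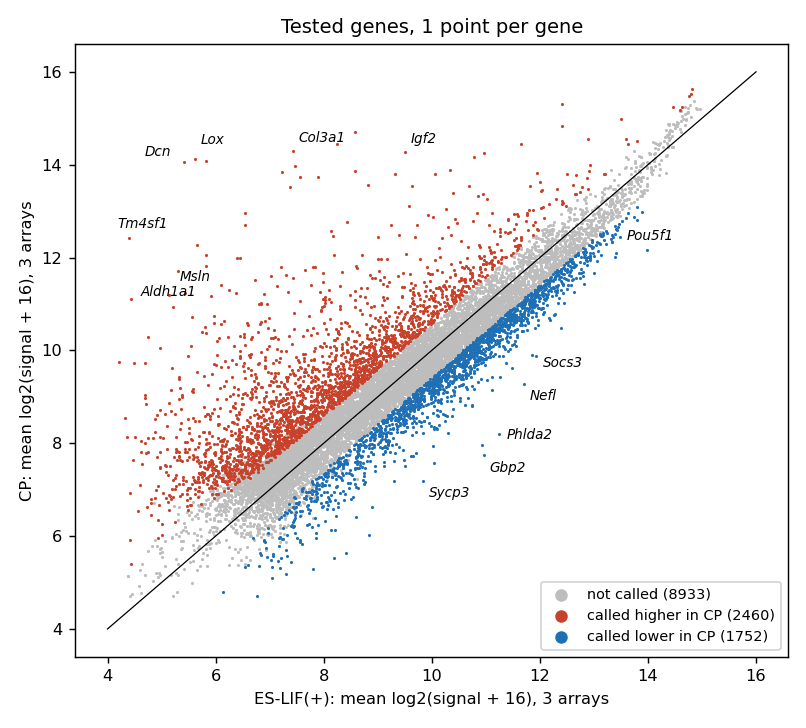
Mean log2(signal + 16) of 13145 tested genes in ES-LIF(+) (horizontal axis) and CP (vertical axis), 3 arrays each, with the 2460 risen and 1752 fallen genes coloured. The risen genes extend much further from the diagonal than the fallen ones, and most of the furthest are genes of the extracellular matrix.

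The 15 largest rises among genes whose arrays did not overlap were mostly genes of secreted matrix. Col3a1, a fibrillar collagen, read 244, 151 and 103 on the ES-LIF(+) arrays and 19611, 20969.5 and 19915 on the CP arrays (log2 difference 6.87 ± 0.29 (SE), adjusted p = 1.22e-10). Lum (lumican) and Bgn (biglycan), small proteoglycans that bind collagen, rose by 6.62 and 6.62, and Fbln2 and Postn, which encode the matrix glycoproteins fibulin-2 and periostin, by 6.50 and 6.41. Beside Dcn, Lox, S100a4, Tm4sf1, Col1a2 and Col5a2, the same 15 held Aldh1a1, an enzyme that makes retinoic acid, Ptgs2, the inducible cyclooxygenase, Tinagl1, a matrix glycoprotein, and Cdh11, the mesenchymal cadherin. Aldh1a1 read 4.2, 14.2 and 0.7 with LIF and 2238, 2283 and 2033 in CP (log2 difference 6.66 ± 0.21 (SE), adjusted p = 7.75e-12). Cdh11 read 84.8, 68.8 and 77.5 against 6512, 6697 and 6580.5 (log2 difference 6.15 ± 0.10 (SE), adjusted p = 5.89e-15). On the ES-LIF(+) arrays both genes sat below the array median, so that their level there has little precision, while all CP arrays lay far above it.

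The 15 largest falls were smaller. The furthest was the guanylate-binding protein Gbp2 (-3.23), followed by Phlda2 (-3.04) and by Gbp2b (-2.98), a relative of Gbp2. Ltb, which encodes lymphotoxin beta, read 312, 493 and 564 with LIF and 52.4, 53.6 and 41.2 in CP (log2 difference -2.82 ± 0.27 (SE), adjusted p = 8.59e-07). Sycp3, a component of the meiotic synaptonemal complex, read 756, 1111 and 871 and 119, 178 and 103 (log2 difference -2.65 ± 0.22 (SE), adjusted p = 1.97e-07), and Klf15, a Krüppel-like factor, fell by 2.79. Non-overlapping arrays were a condition of entry to these 15, so their separation is no result. Gbp2, Gbp2b, Nefl and Sfn, which belong to the same 15, were each highest on the third ES-LIF(+) array. Calb2 (calretinin), Vgf (a secreted neuropeptide precursor) and Nefl (neurofilament light chain), better known from neurons, fell by 2.26, 2.12 and 2.43.

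The receptors for the supplied factors were examined next, since the CP cells had been exposed to 9 of their ligands and to TNFα. Of 33 tested receptor genes, 15 rose and 3 fell, where 18.7% and 13.3% of all genes did, and their median difference was 0.56 (0.27 after centring). The TGFβ receptors moved unequally. Tgfbr2, the ligand-binding type II receptor, read 258, 221 and 167 with LIF and 3565, 3810.1 and 3229 in CP (log2 difference 3.96 ± 0.16 (SE), adjusted p = 9.67e-11), and Tgfbr3 (betaglycan), the co-receptor that presents TGFβ2, read 103, 157 and 93.2 and 1231, 1139 and 1261 (log2 difference 3.23 ± 0.19 (SE), adjusted p = 4.77e-09). Tgfbr1, the type I receptor that carries the kinase signal to SMADs, read 1339, 1398 and 1517 and 1390, 1407 and 1418 at its brightest probe set (difference -0.01, adjusted p = 0.933), while the mean over its probe sets was higher in CP by 0.88 and was called. Thus the probe sets of Tgfbr1 disagree, and those of Tgfbr2 and Tgfbr3 each agreed in the rise. Of the BMP receptors, Acvr1 rose 3.03-fold and Bmpr2 by 0.98 in log2, and Bmpr1a differed by 0.16 (adjusted p = 0.183).

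Nrp1 (neuropilin-1), a VEGF and semaphorin co-receptor, read 168, 88.1 and 90.5 on the ES-LIF(+) arrays and 1552, 1676 and 1726 on the CP arrays (log2 difference 3.72 ± 0.19 (SE), adjusted p = 1.17e-09). Its relative Nrp2 read 954, 1199 and 1577 and 593, 658 and 641 (log2 difference -0.93 ± 0.23 (SE), adjusted p = 0.00325). The 2 neuropilins therefore moved in opposite directions, and in ES-LIF(-) they read 130.4, 90.1 and 87.5 for Nrp1 and 207, 279 and 469 for Nrp2. Flt1, the VEGF receptor of highest affinity, rose by 1.44, and Kdr, the main signalling VEGF receptor and a marker of early mesoderm, read 229, 260.4 and 168 against 310.2, 351 and 320 (difference 0.56, adjusted p = 0.0225), just inside the 1.5-fold limit, and called without the first (0.60) or second (0.69) ES-LIF(+) array or without the first CP array (0.60). Fgfr1 rose by 1.17, Egfr by 1.02 and Erbb2 by 0.91. Fgfr2 differed by 0.23 (adjusted p = 0.215) and Erbb3, a receptor for neuregulins, by 0.08 (adjusted p = 0.559). Fgfr3 was called lower (-0.61, adjusted p = 0.0439). Leaving out single arrays ended this call, among them the first (adjusted p = 0.0936) or second (0.137) ES-LIF(+) array and the second CP array (0.182). Its sign turned in the mean over its probe sets. Il4ra, the signalling chain of the interleukin-13 receptor, rose by 2.12 from 21.1, 67.4 and 49.5 to 249.6, 272 and 201.

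TNFα has a pair of receptors, and only the first was called. Tnfrsf1a, present on most cell types, read 404, 404 and 296 with LIF and 2333, 1942 and 2261 in CP (log2 difference 2.52 ± 0.15 (SE), adjusted p = 4.15e-09), whereas Tnfrsf1b read 262, 232 and 267 and 218, 192 and 239 (difference -0.22, adjusted p = 0.439). The chains of the LIF receptor moved apart. Lifr, the specific chain, read 1142, 1629 and 2019.6, while CP read 368, 578 and 394 and ES-LIF(-) 521, 619 and 432 (log2 difference -1.79 ± 0.20 (SE), adjusted p = 4.18e-06). Il6st, the chain shared with the interleukin-6 receptor, read 879, 1082 and 973 with LIF, 450.4, 521 and 560.1 without it and 2308, 1915 and 2381 in CP (log2 difference 1.16 ± 0.12 (SE), adjusted p = 1.9e-06). Both stem cell groups were thus below CP for Il6st, and for Lifr the CP and ES-LIF(-) arrays overlapped (log2 difference -0.24 ± 0.20, adjusted p = 0.356).

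**Figure D2:**
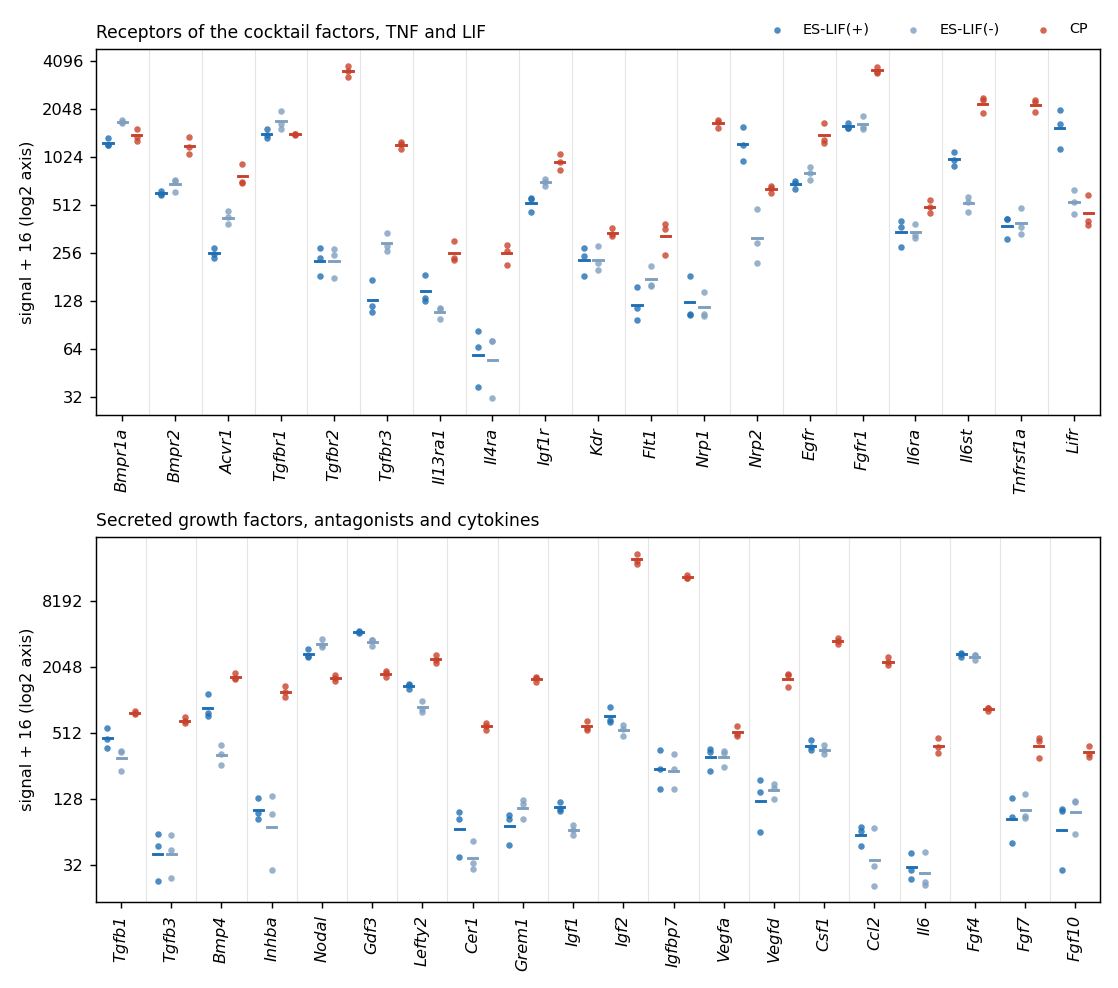
Signal + 16 on a log2 axis for receptor and ligand genes on each ES-LIF(+), ES-LIF(-) and CP array, with bars at the mean of the 3 log2 values. Tgfbr2, Nrp1 and Tnfrsf1a were higher on all CP arrays than on all other arrays shown, and Lifr was highest on the ES-LIF(+) arrays.

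Ligands and secreted antagonists of the TGFβ family rose in the majority: 18 of 28 tested members rose and 2 fell, with a median of 1.15. Tgfb3 read 44.5, 6.6 and 31.1 with LIF and 635, 702 and 608 in CP (log2 difference 4.05 ± 0.36 (SE), adjusted p = 3.54e-07), and Inhba, the subunit of activin A, read 78, 68.3 and 113 and 1364, 1080.5 and 1186 (log2 difference 3.60 ± 0.39 (SE), adjusted p = 3.22e-06). Bmp4, an inducer of mesoderm, read 1143, 707 and 761, 1794, 1577 and 1594 in CP and 244, 312 and 379.9 in ES-LIF(-) (log2 difference 0.94 ± 0.17 (SE), adjusted p = 0.000371). Of the antagonists, Grem1, which binds BMPs, rose by 4.47, Cer1, which binds nodal and BMP, by 3.13, and Fst (follistatin), which binds activin, by 1.16, while Lefty1, which binds nodal, differed by 0.55, within 1.5-fold, though it was called without the first ES-LIF(+) array (0.61) and after quantile normalization (0.65). The ligand Bmp7 was not called (0.06, adjusted p = 0.76), and Tgfb2 differed by 0.47, within 1.5-fold, and was called without the third ES-LIF(+) array (0.60). The falls were Gdf3 and Nodal, both made by the pluripotent epiblast, by 1.26 and 0.73.

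Downstream, 5 of 16 SMAD, Id and target genes rose and 1 fell (5 and 3 after centring). Pmepa1, a TGFβ-induced feedback inhibitor, read 287, 235 and 394 and 1909.8, 1927 and 2106 (log2 difference 2.66 ± 0.15 (SE), adjusted p = 2.35e-09). The Id genes, targets of BMP that block basic helix-loop-helix factors, split: Id3 rose by 1.12, Id2 fell by 1.19, and Id1 differed by 0.10 (adjusted p = 0.592). Smad3, a mediator of TGFβ, and Smad6, an inhibitor of BMP signalling, rose by 0.87 and 0.94, and Smad7, the general inhibitor, differed by 0.34, a change within 1.5-fold.

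The insulin-like growth factor axis held 7 risen and 0 fallen genes of 12 tested (7 and 2 after centring), with a median of 2.02. Igfbp7, a secreted binding protein, read 340.1, 140.5 and 223 with LIF and 13209, 14282 and 13406 in CP (log2 difference 5.85 ± 0.25 (SE), adjusted p = 1.46e-10). Igfbp4 read 1483, 1227 and 1306 and 11148, 10224 and 11047 (8.01-fold, adjusted p = 2.97e-11). The ligand Igf1, itself a factor of the cocktail, rose by 2.46, from 88, 82.5 and 104 to 553, 638 and 531, and Irs1, the adaptor of the insulin and IGF1 receptors, by 1.66. Igfbp2 differed by 0.30, within 1.5-fold, so the binding proteins did not move as 1 group. Igf1r rose by 0.85, a call that was not made after median centring.

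Among other growth factors (9 of 17 rose, 2 fell, with 5 and 3 after centring), ligands of 1 receptor family did not move alike. Vegfd, a ligand of VEGF receptors, read 47.1, 175 and 132 and 1733, 1331 and 1708 (log2 difference 3.72 ± 0.30 (SE), adjusted p = 1.32e-07), and Csf1, the macrophage growth factor, 363, 344 and 421 and 3734, 3301 and 3496 (log2 difference 3.17 ± 0.10 (SE), adjusted p = 7.64e-12). Vegfa rose by 0.78, a call that ended after centring (0.49), after quantile normalization (0.53) and without the first ES-LIF(+) array (0.57), and Vegfc differed by 0.22 (adjusted p = 0.167). Pdgfb and Pdgfc fell by 1.08 and 0.80 and Pdgfa differed by -0.38 (adjusted p = 0.0722), while both PDGF receptors rose, Pdgfra by 2.42 and Pdgfrb by 3.56. Of 21 genes of FGF ligands and feedback regulators, 6 rose and 5 fell (6 and 8 after centring). Fgf4, the autocrine factor of stem cells, read 2679, 2527 and 2740.4 with LIF and 849.9, 795 and 849 in CP (log2 difference -1.65 ± 0.10 (SE), adjusted p = 1.07e-08). Fgf8, a factor of the primitive streak and heart field, read 197, 132 and 139 and 722, 793 and 723 (log2 difference 2.16 ± 0.18 (SE), adjusted p = 1.55e-07). Fgf7 and Fgf10, which signal from mesenchyme to epithelium, rose by 2.24 and 2.35. The ligands thus moved in both directions, and the feedback genes were divided: Spry4 and Etv5 fell by 0.77 and 0.84, and Spry2 differed by 0.35, within 1.5-fold.

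Of 31 WNT pathway genes, 14 rose and 2 fell (median 0.31, and 11 and 5 after centring with a median of 0.03). Dkk2, a secreted inhibitor of the WNT co-receptor, read 2.2, 3.2 and 2.4 with LIF and 821, 670.3 and 1079.7 in CP (log2 difference 5.53 ± 0.31 (SE), adjusted p = 2.95e-09). Its relative Dkk3 read 93.5, 139.8 and 126 and 947, 846 and 704 (log2 difference 2.65 ± 0.17 (SE), adjusted p = 1.62e-08), and Dkk1, a direct WNT target and inhibitor, rose by 1.61. Wnt5a, a ligand of the non-canonical branch, rose by 1.41 and the receptor Fzd1 by 2.06. Ctnnb1 (β-catenin) differed by -0.00 and the feedback gene Axin2 by -0.11 (adjusted p = 0.569), and Tcf7l1, the repressor of the TCF family in stem cells, fell by 0.75. Notch and Hedgehog genes gave 3 rises and 4 falls of 23, shares near those of all genes, and 0 and 5 after centring. The falls included the receptor Ptch1 (-1.43) and the effector Gli1 (-1.48), both of which are also transcriptional targets of Hedgehog. Gli1 read 744, 735 and 1024 with LIF, 288, 290.4 and 277 in CP and 174, 353 and 213 in ES-LIF(-), so that CP and ES-LIF(-) lay close together (log2 difference 0.26 ± 0.24, adjusted p = 0.4).

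The YAP and TAZ co-activators, which enter the nucleus with TEAD factors in spread and stretched cells, were represented by 17 tested genes. Of these 13 rose and 1 fell (median 0.81), with 8 and 1 after centring (median 0.53). Ccn1 (Cyr61), a matricellular target of TEAD, read 907, 818 and 1204 with LIF and 7252, 7598 and 8305 in CP (log2 difference 2.98 ± 0.12 (SE), adjusted p = 6.53e-11). Ankrd1, a stretch-induced muscle protein, read 86, 53.8 and 92.9 and 1228, 1321 and 1357 (log2 difference 3.84 ± 0.20 (SE), adjusted p = 1.38e-09), and Axl, a receptor kinase, 289, 289 and 244 and 5394, 6591 and 4987 (log2 difference 4.29 ± 0.18 (SE), adjusted p = 1.17e-10). The arrays of both groups were far apart for all 3 genes. Lats2, the kinase that restrains YAP, rose by 2.57, and Yap1 itself differed by 0.22, within 1.5-fold. Amotl2, Wwtr1 (TAZ), Tead1 and Ccn2 rose by 0.72, 0.76, 0.78 and 0.81, and these smaller rises were not called after median centring. Ajuba, a LIM protein that binds LATS kinases, was the fall (-1.01).

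The contractile genes shared by smooth muscle and stressed fibroblasts gave 14 rises and 0 falls of 21 (median 1.43). Mylk, the kinase of myosin light chains, read 50.7, 51.9 and 37.9 with LIF and 874, 783 and 820 in CP (log2 difference 3.75 ± 0.19 (SE), adjusted p = 9.34e-10), and Myl9, a regulatory myosin light chain, read 337, 321 and 267 and 3723, 2935 and 3227 (log2 difference 3.35 ± 0.12 (SE), adjusted p = 1.51e-11). Acta2, the vascular smooth muscle actin that also marks early cardiomyocytes, rose by 3.28 from 2589, 2013 and 1500.5 to 17860.3, 21922 and 18894. Tagln (transgelin), an actin-binding protein, rose by 2.41. Against these, Myh11, the smooth muscle myosin heavy chain and the most specific marker of that cell type, read 25.2, 8.8 and 60.6 and 4.1, 28.3 and 52.3, below the median of every array. Srf and its coactivator did not pass the test: Myocd (myocardin) differed by 0.37 (adjusted p = 0.29) and Srf by -0.05 (adjusted p = 0.719). For Myocd the study itself reported a rise during cardiac specification by quantitative PCR.

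Because these 2 groups and the collagens rose together, the letters of their promoters were searched. GGAATG, the core of the TEAD motif (CATTCC on the other strand), was found on either strand in at least 1 promoter window, from 250 bases before the start to 50 after it, of 10 of 15 YAP and TEAD pathway genes with a promoter in the RefSeq table (66.7%). Over all 14452 genes of the array with a promoter the share was 15.3%. Of the matching pathway genes, Yap1 and Tead3 were not called higher and Ajuba fell. The list was written from general knowledge and includes TEAD targets such as Ccn1, so its share is only a description. The CArG box, the motif of SRF, was searched only as CCWWWWWWGG, where each W is A or T. Sites with another letter inside were not counted, among them ccctatatgg and ccttgtttgg in the Acta2 sequence below. In this strict form it stood in 3 of 18 contractile genes (16.7%), which were Cnn2, Myl6 and Myl9, against 1.58% of all genes. Of these 3 Myl9 alone was called. GGAATG was also held by 8 of these 18 (44.4%) and by 3 of 20 collagen genes (15%). CCAAT stood in 12 of 18 contractile genes (66.7%), 7 of 20 collagen genes (35%) and 4 of 15 YAP and TEAD pathway genes (26.7%), against 42% of all genes. Across all promoters of risen genes, of fallen genes and of the array, GGAATG was held by 14.1%, 11.3% and 13.2%, the CArG box by 1.61%, 1.13% and 1.35% and CACGTG, the E-box of MYC, by 7.51%, 11.8% and 8.72%. A match describes letters only and shows no binding.

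The following 250 bases upstream of the start, from RefSeq on GRCm38.p6 and written 5′ to 3′ on the strand of the gene, show where such letters lie in genes that rose, with matches of GGAATG or CATTCC in capitals for Ccn1 (chr3:145649986-145650235, minus strand), Ankrd1 (chr19:36119845-36120094, minus strand), Amotl2 (chr9:102717554-102717803, plus strand) and Acta2 (chr19:34255374-34255623, minus strand), the CArG box in capitals for Myl9 (chr2:156775214-156775463, plus strand), and CCAAT in capitals for Col1a2 (chr6:4505368-4505617, plus strand).
Ccn1: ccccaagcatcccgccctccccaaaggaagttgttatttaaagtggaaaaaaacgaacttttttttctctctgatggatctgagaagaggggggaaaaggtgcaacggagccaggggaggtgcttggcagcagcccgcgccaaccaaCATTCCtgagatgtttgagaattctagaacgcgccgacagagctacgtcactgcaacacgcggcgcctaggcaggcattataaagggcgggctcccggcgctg
Ankrd1: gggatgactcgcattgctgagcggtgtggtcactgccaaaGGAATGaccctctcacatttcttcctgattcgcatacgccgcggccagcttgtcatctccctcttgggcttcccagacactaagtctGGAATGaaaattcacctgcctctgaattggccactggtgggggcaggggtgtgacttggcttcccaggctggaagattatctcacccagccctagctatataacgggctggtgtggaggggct
Amotl2: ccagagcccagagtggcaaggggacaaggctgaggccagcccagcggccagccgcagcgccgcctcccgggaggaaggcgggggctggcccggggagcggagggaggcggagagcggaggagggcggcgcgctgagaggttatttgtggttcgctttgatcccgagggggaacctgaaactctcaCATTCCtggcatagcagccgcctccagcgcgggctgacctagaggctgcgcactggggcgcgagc
Acta2: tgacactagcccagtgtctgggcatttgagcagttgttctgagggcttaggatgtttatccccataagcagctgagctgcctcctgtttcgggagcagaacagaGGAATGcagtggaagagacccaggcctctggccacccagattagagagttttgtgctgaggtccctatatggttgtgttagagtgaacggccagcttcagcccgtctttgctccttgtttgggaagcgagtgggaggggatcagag
Myl9: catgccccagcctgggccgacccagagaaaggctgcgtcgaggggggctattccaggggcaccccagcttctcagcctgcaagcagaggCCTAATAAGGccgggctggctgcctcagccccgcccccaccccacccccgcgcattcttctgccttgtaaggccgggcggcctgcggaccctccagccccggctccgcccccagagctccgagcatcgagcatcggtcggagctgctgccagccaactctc
Col1a2: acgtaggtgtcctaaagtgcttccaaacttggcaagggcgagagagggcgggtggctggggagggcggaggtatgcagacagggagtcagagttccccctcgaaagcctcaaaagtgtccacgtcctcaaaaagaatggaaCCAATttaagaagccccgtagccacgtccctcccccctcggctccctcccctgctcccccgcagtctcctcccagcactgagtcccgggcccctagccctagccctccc

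In Ccn1 the letters lie 103 to 98 bases before the start and in Amotl2 65 to 60, while Ankrd1 holds them at 210 to 205 and at 123 to 118. In Acta2 they lie 146 to 141 bases before the start, the CArG letters of Myl9 lie 161 to 152 and the CCAAT of Col1a2 109 to 105.

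CP cells had been held with TNFα, and of 23 genes of the TNF and NF-κB response 9 rose and 2 fell (median 0.53). Ccl2, a monocyte chemokine, read 49.3, 54 and 31.2 with LIF and 2116, 2494 and 2239.6 in CP (log2 difference 5.26 ± 0.32 (SE), adjusted p = 7.46e-09). Vcam1, an adhesion molecule for leukocytes, read 121, 162 and 96.5 and 2833, 2598 and 2592 (log2 difference 4.26 ± 0.22 (SE), adjusted p = 9.86e-10), and Il6 7.6, 25.2 and 12.4 and 318, 445 and 365 (log2 difference 3.68 ± 0.34 (SE), adjusted p = 6.11e-07). Ptgs2, another inducible gene, was among the 15 largest rises (6.23). Nfkbia, the feedback inhibitor of the pathway, differed by -0.08 (adjusted p = 0.576). Icam1 differed by -0.06 and Cxcl1 by 0.16, neither with an adjusted p under 0.05, and Relb, the NF-κB subunit of the non-canonical branch, fell by 1.04. Chemokines, adhesion molecules and regulators each held genes that were called and genes that were not.

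Interferon response and antigen presentation genes gave 12 rises and 2 falls of 30, and 7 and 6 after centring (median 0.05). B2m, the light chain of class I molecules, read 2768, 2972 and 2985 with LIF and 8234, 7663 and 7737 in CP (log2 difference 1.43 ± 0.09 (SE), adjusted p = 1.19e-08). Ifit3, an antiviral effector, read 80.2, 57.5 and 16.3 and 457, 308 and 409 (log2 difference 2.72 ± 0.35 (SE), adjusted p = 1.75e-05). The falls were the guanylate-binding proteins Gbp2 (-3.23) and Gbp3 (-1.49), so that genes of 1 response lay at both ends. Against ES-LIF(-), where 18.2% and 14.5% of all genes were higher or lower in CP, the counts for this list were 10 and 8: Psmb8, a subunit of the immunoproteasome, read 405, 362 and 451 with LIF, 1034, 632 and 719.7 without it and 274, 333 and 379.9 in CP.

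Genes known as targets of LIF and STAT3 fell in the majority, 8 of 13, with 3 rises and a median of -0.61 (9 falls and 1 rise after centring). Socs3, the feedback inhibitor of STAT3, read 3565, 4099 and 3966 with LIF, 310.4, 324 and 332 without it and 862, 1046 and 860.3 in CP (log2 difference -2.05 ± 0.11 (SE), adjusted p = 2.02e-09). CP therefore lay between the stem cell groups, below the first and above the second (log2 difference 1.47 ± 0.11, adjusted p = 7.59e-08). Fos, an immediate early factor, rose by 1.79 and read 342, 283 and 302, 203, 227 and 263 and 1072, 1145 and 1100.4 in the same order, and Pim3, a kinase, fell by 1.41. Stat3 itself read 2204, 1983 and 1673, 599.6, 567 and 559.8 and 3494, 2696 and 3086. Its rise against ES-LIF(+) was 0.66 (adjusted p = 0.000152), and it fell under the 1.5-fold limit without the third ES-LIF(+) array (0.55), without the first CP array (0.57) and after median centring (0.38).

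Of 18 naive pluripotency genes, 12 were lower in CP than in ES-LIF(+) and 1 was higher. Against ES-LIF(-), however, 11 were higher in CP and 3 lower. Tfcp2l1, a LIF-sustained factor, read 2024, 2689 and 3001 with LIF, 180, 337 and 351 without it and 1229, 1348 and 1471 in CP. The differences of CP were -0.91 against ES-LIF(+) (adjusted p = 0.00205) and 2.21 against ES-LIF(-). Esrrb, an orphan nuclear receptor, read 3977, 4864 and 4526, 365, 758 and 596 and 2369, 2162 and 2142, with differences of -0.99 and 1.99. Thus CP stood between both stem cell groups for these genes. Nr0b1, Tcl1, Zfp42 and Klf2 showed the same order, with -1.13, -1.17, -0.89 and -0.86 against ES-LIF(+) and 1.01, 1.52, 1.19 and 1.17 against ES-LIF(-). Nanog read 6904, 7133 and 7744, 3446, 3420 and 3388 and 6235, 6519 and 6049, and its difference between CP and ES-LIF(+) did not pass the test (-0.21, adjusted p = 0.148).

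Klf4 read 2078, 3151 and 2969 with LIF, 152, 181 and 111 without it and 1684, 1756 and 1840.5 in CP. Its fall against ES-LIF(+) was 0.61 (adjusted p = 0.00948). This call ended without the second ES-LIF(+) array (-0.49), without the third array of that group (-0.54), without the first CP array (-0.58) and after quantile normalization (-0.52). Against ES-LIF(-) CP was higher (log2 difference 3.46 ± 0.17, adjusted p = 7.49e-10). Dppa4 and Fgf4 belonged to the same list and did not follow this order, since both were below either stem cell group (-1.23 and -1.65 against ES-LIF(+), -0.99 and -1.58 against ES-LIF(-)).

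The core and general pluripotency genes were lower in CP than in either stem cell group: 9 of 11 were below ES-LIF(+) and 8 below ES-LIF(-), and 0 and 0 were above. L1td1, an RNA-binding protein of stem cells, read 11112, 10295 and 11084, 9459, 11068 and 10153 and 4332, 4494 and 4234 in ES-LIF(+), ES-LIF(-) and CP (log2 difference -1.31 ± 0.07 (SE), adjusted p = 3.38e-09). Tdgf1 (Cripto), the nodal co-receptor, read 11439.8, 10609.9 and 9529, 10229, 10194 and 9275 and 5209, 5802 and 5539.8 (log2 difference -0.93 ± 0.09 (SE), adjusted p = 1.12e-06). Foxd3 fell by 1.04, and Sox2 by 0.84. All of these genes remained well above the array median in CP. Of 11 primed epiblast genes, 3 were above and 4 below ES-LIF(+), and 1 above and 10 below ES-LIF(-). Pou3f1 (Oct6) read 1251, 1223 and 1479, 3584, 3885 and 3419.8 and 351, 405 and 353, lowest in CP. Otx2 read 934, 905 and 888, 3007, 3446 and 3894 and 956, 861 and 945, with ES-LIF(-) apart and the other two groups overlapping (difference 0.02, adjusted p = 0.915). Fgf5, the standard marker of the primed state, read 218, 267 and 404, 1401, 1291 and 1440.3 and 671, 733 and 798, and was intermediate in CP.

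**Figure D3:**
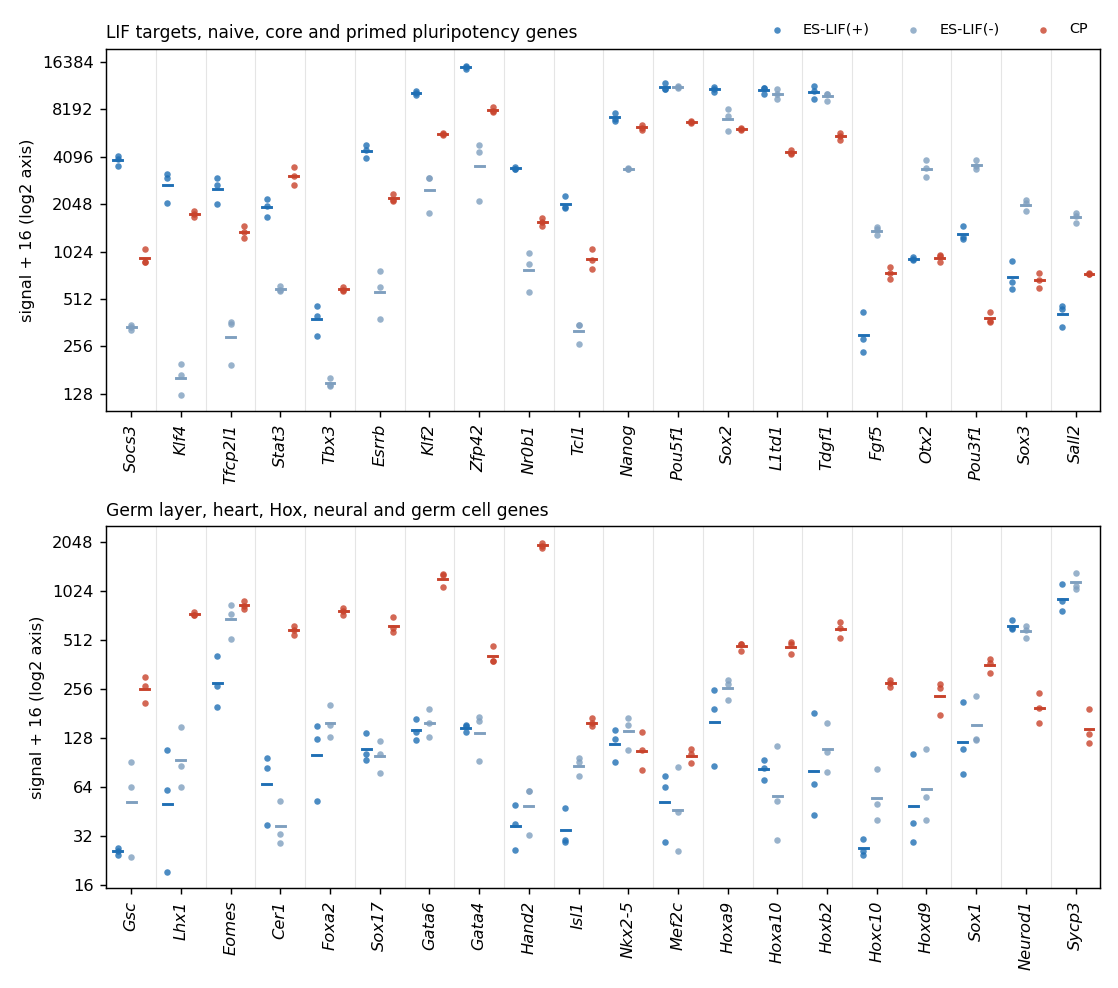
Signal + 16 on a log2 axis for pluripotency, patterning and lineage genes on each ES-LIF(+), ES-LIF(-) and CP array, with bars at the mean of the 3 log2 values. For Socs3, Klf4 and Esrrb the CP arrays lie between the others, and for Pou3f1 they lie below both.

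The largest changes of the comparison were in the extracellular matrix. Of 20 tested genes of fibrillar and other collagens, 14 rose and 0 fell (median 2.16, and 14 and 1 after centring). Collagen IV was counted among the basement membrane genes. Of the matricellular and elastic fiber genes 19 of 19 rose (18 after centring). Of 9 small leucine-rich proteoglycans on the array 7 were tested and 7 rose, but 6 of these were tested only because other arrays than ES-LIF(+) were bright. Col1a2 read 277, 296 and 285 with LIF and 22056, 23048 and 21829.5 in CP (log2 difference 6.21 ± 0.08 (SE), adjusted p = 7.6e-16). Col6a1, a beaded-filament collagen, read 108, 88.5 and 115 and 2345, 2242 and 2476 (log2 difference 4.31 ± 0.35 (SE), adjusted p = 1.49e-07), and Col2a1, the cartilage collagen, rose less (1.79). Col18a1, a basement membrane zone collagen, was not called, reading 5617, 4018 and 4783 and 3243, 3128 and 3411 (difference -0.54, or -0.67 and called without the second ES-LIF(+) array). Ogn (osteoglycin) rose by 4.72. Of the glycoproteins, Sparc, which binds collagen, already stood high in stem cells, at 6156, 4599.9 and 5642, and read 38886, 44733 and 37961 in CP (log2 difference 2.89 ± 0.11 (SE), adjusted p = 3.08e-11). Tnc (tenascin C), a protein of remodelling matrix, read 136, 75.1 and 92.8 and 1926, 2222 and 2017 (log2 difference 4.17 ± 0.16 (SE), adjusted p = 4.05e-11), and Thbs1, an activator of latent TGFβ, 751, 653 and 965 and 11637, 12366 and 11498. Fn1 (fibronectin) rose by 1.66 and Fbln5, needed for elastic fibers, by 4.48. For these glycoproteins the arrays of both groups did not overlap, as for 2395 of the 2460 risen genes and 7964 of all 13145 tested genes.

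Enzymes that mature collagen rose too, 15 of 18, with 1 fall (median 1.18). Serpinh1 (HSP47), the collagen chaperone, read 1749.8, 1589.8 and 1570.4 and 11441, 13781 and 10818 (log2 difference 2.86 ± 0.10 (SE), adjusted p = 2.23e-11). P4ha1, a subunit of prolyl 4-hydroxylase, rose by 2.62, and Loxl1, a cross-linking oxidase, by 3.63. The fall was in Pcolce2, an enhancer of procollagen processing (-1.28), while its relative Pcolce rose (1.07) and read 2049.7, 1891 and 2006 with LIF, 398, 485 and 418 without it and 4301, 4154 and 4120.2 in CP. Genes of the general secretory pathway moved less: 14 of 32 rose, with a median of 0.52 on the deposited scale, and 8 rose and 1 fell after centring. Kdelr3, a retrieval receptor, rose by 1.98 and Creb3l2, a transcription factor of secretory cells, by 1.43. Ddit3 (CHOP), a factor of the unfolded protein response, read 196, 418 and 332 and 888, 989 and 932 (log2 difference 1.58 ± 0.24 (SE), adjusted p = 6.63e-05), whereas Atf4, upstream of it, differed by -0.22 (adjusted p = 0.22).

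Matrix proteases and their inhibitors rose together, 17 of 21 with 0 falls (median 2.39, and 14 and 1 after centring). Timp3, an inhibitor bound to matrix, read 124, 229 and 117 with LIF and 12302, 11596 and 11495 in CP (log2 difference 6.15 ± 0.17 (SE), adjusted p = 1.3e-12), and Timp2 405, 353 and 349.9 and 15273, 15254 and 13892 (log2 difference 5.27 ± 0.08 (SE), adjusted p = 1.26e-15). The gelatinase Mmp2 rose by 2.75, its membrane-bound activator Mmp14 by 2.06, and the stromelysin Mmp10 by 3.55. Of 18 basement membrane genes 11 rose and 2 fell (8 and 2 after centring). Col4a1 read 1325, 1059 and 823 and 13519.9, 14450.4 and 14533 (log2 difference 3.73 ± 0.14 (SE), adjusted p = 2.97e-11), and its partner Col4a2 rose by 4.34. The falls were Nid2 (-0.78) and Agrn, which encodes agrin (-1.09), whereas Nid1, the relative of Nid2, rose by 1.18. Nid1 read 1532, 1340 and 1746 with LIF, 426, 458 and 503 without it and 3309, 3566 and 3619 in CP, so that CP was above both.

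Integrin subunits, the receptors for these proteins, gave 8 rises and 2 falls of 15 (8 and 4 after centring). The share of falls was 13.3%, as among all genes. Itgb1, the common β chain, read 4034, 4358 and 4030.5 and 10861, 11935 and 10344 (log2 difference 1.41 ± 0.08 (SE), adjusted p = 2.06e-09), and Itgav, a chain of the vitronectin receptors, rose by 1.32 and Itga5, of the fibronectin receptor, by 1.03. Itga6, of the laminin receptor of stem cells, fell by 0.91. Laminin receptor chains thus moved both ways, since Itga7 rose by 1.89. Focal adhesion genes gave 11 rises and 0 falls of 17. Zyx (zyxin) read 1855, 1613 and 1723 and 6442, 7794 and 7050.4 (log2 difference 2.02 ± 0.09 (SE), adjusted p = 2.45e-10), Parva, an actin-binding partner of integrin-linked kinase, rose by 2.76 and Vcl (vinculin) by 1.05. Of 7 genes of caveolae, small pits of the cell membrane, 6 rose and 0 fell. Cav1 read 279.6, 218 and 223 and 3130.4, 3203 and 3347 (log2 difference 3.67 ± 0.11 (SE), adjusted p = 4.13e-12), and Cavin2, a coat protein, rose by 4.77.

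**Figure D4:**
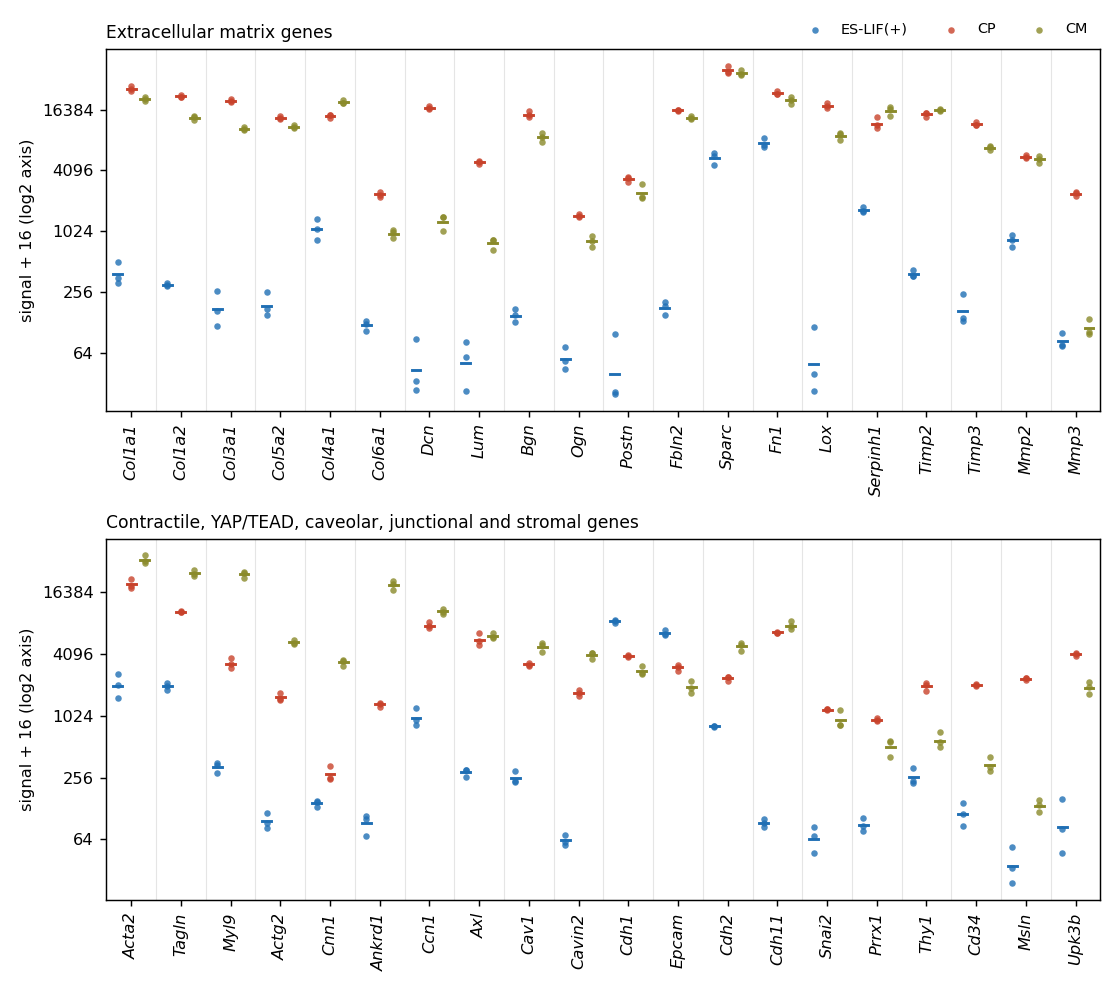
Signal + 16 on a log2 axis for matrix, adhesion and contractile genes on each ES-LIF(+), CP and CM array, with bars at the mean of the 3 log2 values. For each collagen shown the CP arrays lie above the ES-LIF(+) arrays, while Cdh1 and Epcam lie lower in CP and Msln is higher in CP than in CM.

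The epithelial genes of stem cells gave 7 falls and 3 rises of 25 on the deposited scale (median -0.44), and 14 falls and 2 rises after centring. Cdh1 (E-cadherin) read 8254, 8703 and 8508 with LIF and 3876, 4020.2 and 3804 in CP (log2 difference -1.12 ± 0.07 (SE), adjusted p = 1.02e-08), and Epcam 6943, 6183 and 6353 and 2798, 3172 and 3062 (log2 difference -1.10 ± 0.09 (SE), adjusted p = 2.35e-07). Both stayed far above the array median in CP. Cldn4, a tight junction protein, and Dsg2, a desmosomal cadherin, fell by 1.48 and 1.24, and Krt7, a keratin of simple epithelia and mesothelium, rose by 3.87. Krt8 and Krt18 differed by 0.14 and 0.29, with adjusted p of 0.646 and 0.187. Mesenchymal factors rose in 15 of 16 cases (median 1.40) with 0 falls. Snai2 (Slug), a repressor of E-cadherin, read 52.4, 31.1 and 68.9 and 1169, 1166 and 1136 (log2 difference 4.18 ± 0.24 (SE), adjusted p = 3.95e-09). Prrx1, a homeobox factor of mesenchyme, rose by 3.42, Twist2 by 2.07, Twist1 by 1.91 and Snai1 by 1.23.

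Markers of stromal and mesothelial cells moved with the matrix genes, and their part in those results was not tested. Of 11 tested fibroblast and stromal markers, 9 rose and 0 fell, and the summed signal of the list was 1788 to 1881 on the ES-LIF(+) arrays and 12655 to 13230 on the CP arrays. Cd34 read 129, 96.8 and 69.7 and 2041, 2071 and 1974 (log2 difference 4.19 ± 0.19 (SE), adjusted p = 2.82e-10), Thy1 301, 221 and 212 and 2127, 1780.3 and 2042 (log2 difference 2.95 ± 0.16 (SE), adjusted p = 2.54e-09), and Pdgfrb rose by 3.56. None of these was listed at 0 on a CP array, and Nt5e (CD73) differed by -0.34 (adjusted p = 0.369). Of 9 mesothelial and epicardial markers 6 rose and 0 fell (6 and 1 after centring), with a summed signal of 1951 to 3932 and 10815 to 11221. Upk3b (uroplakin 3B) read 64.4, 142 and 31.7 and 4047, 4144 and 3928 (log2 difference 5.58 ± 0.45 (SE), adjusted p = 1.39e-07) and Bnc1 (basonuclin 1) 53.5, 5.6 and 52.2 and 1091, 967 and 1179 (log2 difference 4.54 ± 0.38 (SE), adjusted p = 1.93e-07). Of the transcription factors of the epicardium, Tbx18 rose by 2.00 from 14, 16.5 and 6.1 to 108, 107 and 73.4, near background, and Tcf21 differed by 0.62 (adjusted p = 0.113).

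The label of the CP group was set against heart markers at the level of RNA. The study itself examined cardiac factors in these cells as proteins within the nucleus, which arrays do not measure. By quantitative PCR it also reported that Myocd and Lbh RNA increased during cardiac specification, and it listed cardiovascular development genes that rose on the arrays. Of 20 cardiac transcription factors 12 rose and 0 fell (median 0.83, and 8 rises after centring), and of 21 sarcomere and natriuretic hormone genes 7 rose and 1 fell (7 and 3 after centring). Tbx20, a T-box factor of the early heart, read 75.9, 70.4 and 72 with LIF and 285, 219 and 242 in CP (log2 difference 1.57 ± 0.21 (SE), adjusted p = 1.91e-05), and Irx3, an Iroquois factor of the ventricle, 172, 188 and 166 and 791, 806 and 705 (log2 difference 2.03 ± 0.15 (SE), adjusted p = 6.66e-08). Isl1, the marker of the second heart field, rose by 2.19 from 14.2, 31.5 and 13.5 to 142, 153 and 136, close to the array median. Tbx5 was not separable from background, at 37.7, 143 and 27.2 and 50.8, 171 and 29.3 (adjusted p = 0.766). Hand1, a factor of the left ventricle and extraembryonic mesoderm, rose by 1.36. Gata4, Gata6, Hand1, Hand2, Tbx20, Isl1 and Irx3 were among the 12 risen factors, and the differences of Nkx2-5, Tbx5 and Mef2c did not pass the test (adjusted p = 0.665, 0.766 and 0.0723). Mef2c was dim, with ES-LIF(+) at 13.3, 47.8 and 59.3 and CP at 74, 93.4 and 85.6 (difference 0.94), and it passed without the third ES-LIF(+) array (1.21, adjusted p = 0.0405) and without the first or the third ES-LIF(-) array (adjusted p = 0.0388 and 0.0385).

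Tnnt2, the cardiac troponin T, read 7.5, 10.7 and 11.3 with LIF and 414, 602 and 527 in CP (log2 difference 4.35 ± 0.18 (SE), adjusted p = 1.18e-10). Nppa, the atrial natriuretic peptide, read 75.8, 106 and 40.8 and 400.5, 388 and 385 (log2 difference 2.24 ± 0.23 (SE), adjusted p = 1.74e-06), and Myl7, the atrial light chain, rose by 1.80. In the same cells Myh6, a cardiac myosin heavy chain, differed by 0.19 (adjusted p = 0.383), and Actn2 by 0.08 (adjusted p = 0.817). Of 15 genes of heart channels, calcium handling and gap junctions 4 rose and 1 fell, with a median of 0.13 (2 and 1 after centring, median -0.16). Cacna1c, the L-type calcium channel, rose by 1.45 from 57.9, 56.8 and 31.5 to 157, 125 and 195, and Gjc1 (connexin 45) fell by 0.70. Gja1 (connexin 43) read 6945, 6769 and 7051 and 6008, 6781 and 7820.5, a difference of -0.02 with overlapping arrays.

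Mesoderm and primitive streak genes rose in 7 of 11 cases and endoderm genes in 7 of 13, with 0 and 0 falls and medians of 1.36 and 1.55; after centring 1 endoderm gene was lower. Lhx1, a factor of the streak and lateral mesoderm, read 91.5, 3.4 and 45.1 and 709, 746 and 716 (log2 difference 3.88 ± 0.45 (SE), adjusted p = 6.27e-06), and Eomes, which specifies both layers, 251, 182 and 389.9 and 778, 872 and 809 (log2 difference 1.59 ± 0.21 (SE), adjusted p = 2.47e-05). For Eomes the ES-LIF(-) arrays, at 724, 505 and 821, were already near CP (log2 difference 0.28 ± 0.21, adjusted p = 0.296). Foxf1, of splanchnic mesoderm, rose by 2.02, and Mesp1, the transient factor of cardiac mesoderm, differed by 0.29 (adjusted p = 0.33). Foxa2, a factor of endoderm, read 137, 111 and 36.6 and 787, 712 and 759 (log2 difference 2.93 ± 0.30 (SE), adjusted p = 1.72e-06), and Sox17, another, 78, 122 and 85.9 and 689, 555 and 588 (log2 difference 2.51 ± 0.23 (SE), adjusted p = 5.1e-07). Dab2, an endocytic adaptor of extraembryonic endoderm, rose by 2.59. Hnf4a and Ttr, of differentiated visceral endoderm, differed by 0.29 and 1.18 (adjusted p = 0.417 and 0.129). The summed endoderm signal was 7047 to 8350 on the ES-LIF(+) arrays and 11661 to 11865 on the CP arrays.

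Of 10 endothelial markers 3 rose and 2 fell, with a median of 0.16 (1 and 3 after centring, median -0.13): Cdh5 (VE-cadherin) read 11.9, 73.7 and 60.7 and 183, 233 and 109 (log2 difference 1.67 ± 0.38 (SE), adjusted p = 0.00228), and Tek, the angiopoietin receptor, fell by 1.16. Blood and macrophage markers gave 2 rises and 0 falls of 11, a share of 18.2% near the 18.7% of all genes (2 and 1 after centring), and Lyz2 (lysozyme) rose by 2.25. Neural markers gave 2 rises and 4 falls of 12 (2 and 7 after centring). Their share of rises (16.7%) was near that of all genes, and their share of falls (33.3%) was above 13.3%. Stmn2, a neuronal tubulin-binding protein, read 6694, 7158 and 7849.8 with LIF, 3040.3, 3174 and 3378 without it and 2669.5, 2976 and 2654 in CP (log2 difference -1.38 ± 0.08 (SE), adjusted p = 2.77e-09). Neurod1 fell by 1.68, while Ncam1, which is also made by heart and mesenchyme, rose by 1.32. Trophoblast and germ cell markers gave 0 rises and 5 falls of 10 (median -0.86). Tex19.1, a germ and stem cell gene, read 3413, 2874 and 2781 and 1017, 1039 and 1187 (log2 difference -1.47 ± 0.14 (SE), adjusted p = 6.43e-07), and Ddx4 and Mael, of the germ line, fell by 1.54 and 1.70.

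**Figure D5:**
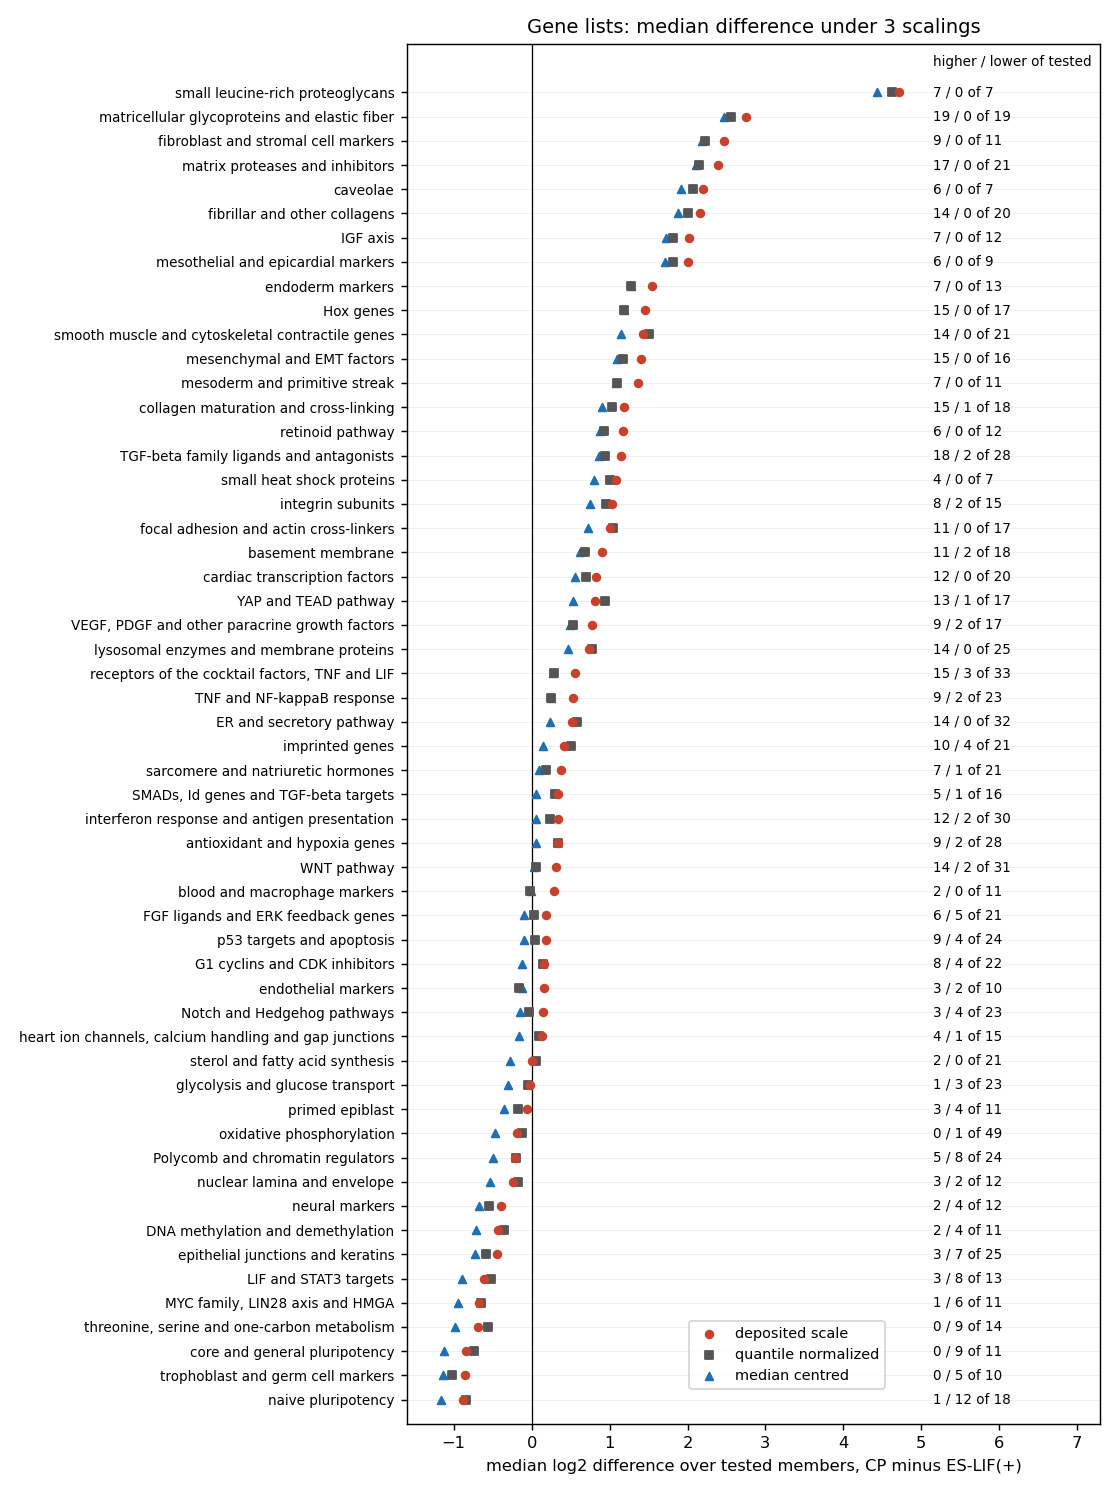
Median log2 difference, CP minus ES-LIF(+), of each of 55 gene lists under the deposited scaling, quantile normalization and median centring, with the numbers of risen and fallen genes of those tested at the right. The proteoglycan list, most of whose tested members were dim in stem cells, lies highest, at 4.72, and the lists of pluripotency, germ cell and serine and one-carbon genes lie below 0.

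Of 33 Hox genes on the array, which give position along the body axis, 16 were too dim to be tested, and 15 of the 17 tested rose with 0 falls (12 and 11 rises after centring and quantile normalization). Of the 17, 8 had no ES-LIF(+) array above the median and could hardly have been called lower. Hoxc10 read 14.7, 9.8 and 8.7 with LIF and 265, 246 and 276 in CP (log2 difference 3.37 ± 0.35 (SE), adjusted p = 1.73e-06), and Hoxb2 167, 51.3 and 26.9 and 592, 509.5 and 643 (log2 difference 2.88 ± 0.39 (SE), adjusted p = 2.63e-05). Hoxa10 rose 5.65-fold, from 77.3, 68.1 and 55.1 to 469, 479.8 and 402. Both anterior and posterior members were among the rises, from low levels in stem cells. Of 12 genes of retinoid metabolism and response 6 rose and 0 fell (6 and 1 after centring). Crabp1, a retinoic acid carrier, read 415, 459.7 and 470.1 and 2890, 3013 and 3502 (log2 difference 2.76 ± 0.18 (SE), adjusted p = 1.2e-08), and Cyp26a1, which degrades retinoic acid and is induced by it, 218, 178 and 221 and 709, 749 and 734 (log2 difference 1.76 ± 0.17 (SE), adjusted p = 8.68e-07). Rarb, an induced receptor, rose by 1.43, and Rarg differed by -0.23 (adjusted p = 0.261).

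Imprinted genes split: 10 of 21 rose and 4 fell (8 and 5 after centring). Dlk1, a paternally expressed ligand, read 601, 336 and 409 with LIF and 12238, 12123 and 11830.5 in CP (log2 difference 4.74 ± 0.19 (SE), adjusted p = 5.88e-11), and Plagl1 (Zac1), a factor that controls other imprinted genes, 1847, 1564 and 1828 and 16307, 20911 and 18060.2 (log2 difference 3.38 ± 0.10 (SE), adjusted p = 2.54e-12). Peg3 rose by 1.36 and Mest by 0.94. Phlda2, among the largest falls above, fell by 3.04, and Cdkn1c, a maternally expressed inhibitor of the cell cycle, by 1.06. Meg3, the maternal transcript of the Dlk1 cluster, differed by 0.42, within 1.5-fold, so that the neighbours of 1 cluster differed in the size of their change. Grb10 read 1179.9, 1982 and 1317 and 809, 899 and 1003, and its fall (-0.68, adjusted p = 0.00214) was not called without the second ES-LIF(+) array (-0.46) and turned to 0.04 in the mean over its probe sets.

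The regulators of G1 gave 8 rises and 4 falls of 22 (median 0.16), and 7 and 7 after centring. These were 36.4% and 18.2%, beside 18.7% and 13.3% of all genes. Cdkn2b (p15), an inhibitor of CDK4 and CDK6 induced by TGFβ, read 201, 138 and 27 with LIF and 1537, 1448 and 1552 in CP (log2 difference 3.76 ± 0.40 (SE), adjusted p = 2.29e-06). Cdkn1a (p21) read 1337, 1308 and 1253 and 5419.7, 5906 and 5747 (log2 difference 2.12 ± 0.07 (SE), adjusted p = 1.39e-11), and Ccnd2 (cyclin D2) 690.1, 445 and 682 and 6661, 6803 and 6605 (log2 difference 3.46 ± 0.13 (SE), adjusted p = 2.99e-11). A further inhibitor, Cdkn1c, fell by 1.06, so that inhibitors moved both ways. Ccnd1 differed by 0.12 (adjusted p = 0.216), and Ccne2 and Cdk2, which drive entry into S phase, fell by 0.99 and 0.71. Of 24 targets of p53 and apoptosis genes 9 rose (37.5%) and 4 fell (16.7%, near the share of all genes), with 7 and 8 after centring (median -0.10). Ccng1, a p53 target, rose by 1.11 and Fas by 2.37, but Bbc3 (PUMA) and Pmaip1 (NOXA), which promote cell death after p53 activation, fell by 1.06 and 0.76.

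Of 11 genes of the MYC family, the LIN28 axis and HMGA 6 fell and 1 rose. Mycn read 7184, 7285 and 6923 and 3072, 3093 and 3175 (log2 difference -1.19 ± 0.10 (SE), adjusted p = 2.17e-07), and Trim71 (Lin41), a target of let-7, 2635, 2440.3 and 2584 and 854, 906 and 1015 (log2 difference -1.45 ± 0.09 (SE), adjusted p = 1.34e-08). Lin28a, which blocks let-7, fell by 1.01. Hmga2, likewise a let-7 target, was the rise, from 2109, 1379 and 2084 to 7449.7, 8252 and 8136 (log2 difference 2.11 ± 0.14 (SE), adjusted p = 2.53e-08). Targets of 1 miRNA family thus moved in opposite directions.

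Chromatin regulators were mixed. Dnmt3l, the cofactor of de novo DNA methylation, read 4659, 3417 and 3192 with LIF and 854, 977 and 1010.3 in CP (log2 difference -1.95 ± 0.19 (SE), adjusted p = 9.76e-07). Tet1, which oxidises methylcytosine, read 4081, 5259.9 and 4558, 1806, 2636 and 2529 without LIF and 1709.8, 1482 and 1721 in CP (log2 difference -1.49 ± 0.13 (SE), adjusted p = 3.74e-07), and Uhrf1, the partner of Dnmt1, fell by 1.19. Of 11 genes of DNA methylation and demethylation 4 fell and 2 rose (6 and 1 after centring). The share of rises (18.2%) was near the 18.7% of all genes. The rises were the methyl-binding proteins Mbd1 (0.83) and Mbd2 (1.36), and that of Mbd1 was not called after centring. Polycomb and related genes gave 5 rises and 8 falls of 24 (4 and 11 after centring). Their share of rises (20.8%) was near the 18.7% of all genes, and that of falls (33.3%) was above 13.3%. Ezh2, the catalytic subunit of PRC2, fell by 0.91, Eed by 0.95 and Suz12 by 0.72. In PRC1 paralogs moved oppositely: Cbx7 fell by 1.28 and Cbx8 rose by 1.11. Of the remodelling ATPases, Smarca2 (BRM) rose by 1.87 and Smarca4 (BRG1) differed by -0.20, within 1.5-fold. Lmna (lamin A/C), usually low in pluripotent cells, read 631, 422 and 572 with LIF, 238, 166 and 266 without it and 2630.4, 2696 and 2923 in CP (log2 difference 2.33 ± 0.16 (SE), adjusted p = 2.42e-08), and Lbr, the lamin B receptor, fell by 0.88.

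Few genes of energy metabolism were called. Of 49 oxidative phosphorylation genes 0 rose and 1 fell (median -0.19), with 13 falls after centring, and of 23 genes of glycolysis and glucose transport 1 rose and 3 fell (median -0.02, and 1 and 8 after centring). Pdk1, which closes the entry of pyruvate into the citric acid cycle, read 3876, 4049 and 3600.4 and 1596, 1279.7 and 1406 (log2 difference -1.42 ± 0.11 (SE), adjusted p = 1.19e-07), and Hk2 fell by 0.87. Ldha differed by 0.03 and Pkm by 0.22 (adjusted p = 0.824 and 0.0719). Sterol and fatty acid synthesis gave 2 rises and 0 falls of 21 (1 and 2 after centring), and Scd1, the stearoyl-CoA desaturase, rose by 1.11.

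Serine, threonine and one-carbon metabolism had 9 falls and 0 rises of 14 (median -0.69). Gldc, the glycine decarboxylase of stem cells, read 3098, 2951 and 2763 with LIF, 2879, 2983 and 2966 without it and 1396, 1267 and 1398 in CP (log2 difference -1.11 ± 0.10 (SE), adjusted p = 3.24e-07). Slc7a5, a transporter of large neutral amino acids, read 5316, 6111 and 4989.5 and 2934, 2712 and 2769.6 (log2 difference -0.96 ± 0.11 (SE), adjusted p = 7.11e-06), and Mthfd1l, a mitochondrial folate enzyme, fell by 0.85. Both stem cell groups were above CP for Gldc, while Phgdh, the first enzyme of serine synthesis, differed by 0.18 (adjusted p = 0.0921).

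Lysosomal genes rose in 14 of 25 cases with 0 falls (median 0.74), and 9 rose and 1 fell after centring (median 0.46). Ctsd (cathepsin D) read 4154, 3950.1 and 3739 with LIF and 13894, 15139.5 and 14665 in CP (log2 difference 1.88 ± 0.07 (SE), adjusted p = 3.85e-11), and Ctsb 2276, 2017 and 2279 and 7945, 8210.5 and 7713 (log2 difference 1.85 ± 0.07 (SE), adjusted p = 5.24e-11). Psap, the precursor of the saposins, rose by 1.40. Antioxidant and hypoxia genes gave 9 rises and 2 falls of 28 (8 and 5 after centring). Sod3, the extracellular superoxide dismutase, read 5.8, 9.3 and 15.7 and 809, 814 and 864 (log2 difference 5.02 ± 0.35 (SE), adjusted p = 3.53e-08), and Hmox1 (heme oxygenase 1) 3658, 2380.3 and 2832 and 6444, 6219 and 6219 (log2 difference 1.11 ± 0.12 (SE), adjusted p = 3.15e-06). Gsta4, a glutathione transferase, fell by 0.99. Of 7 small heat shock proteins 4 rose and 0 fell (4 and 1 after centring). Cryab (αB-crystallin), abundant in heart, read 136, 37 and 132 and 2589.8, 2948 and 3255 (log2 difference 4.79 ± 0.36 (SE), adjusted p = 7.26e-08), and Hspb7, the cardiovascular member, rose by 3.22. Hspb1 was bright in both groups and differed by -0.37, within 1.5-fold.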

How the data were processed

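RNA of 12 cultures, 3 independent samplings for each of 4 groups, was hybridised to 12 Affymetrix Mouse 430 2.0 arrays. The deposited values are linear signal intensity values, which the authors computed with Microarray Suite 5.0 and scaled so that the mean of each array, trimmed by 2% at each end, is 500. The arrays have no sequencing depth, and their number limits the precision. Detection calls of the authors were not used here. Samples were grouped by their titles.

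The analysis used log2(signal + 16). Only probe sets brighter than the array median on 3 or more of the 12 arrays, 26083 of 45037, entered the fit. All 4 groups were fitted together in limma 3.58.1 (R 4.3.3), using lmFit and eBayes with trend = TRUE, and the contrasts CP minus ES-LIF(+) and CP minus ES-LIF(-) were taken. The p-values measure only the spread between these samplings of 1 cell line. Symbols were updated through Entrez identifiers to RefSeq GRCm38.p6, and a gene took its brightest probe set among those naming it alone, so that 13145 of 18193 named genes were tested. In a simulation of CP against ES-LIF(+) over 26083 probe sets, 55 of 67 probe sets changed 2-fold and 66 of 66 changed 4-fold passed with the right sign, and 8 of 25883 unchanged ones were called. The changed probe sets were drawn only from those whose mean in ES-LIF(+) lay well above the array medians of that group. Far fewer were changed than the 5036 and 3025 called in the data, and the other groups were given equal means. The shares that passed therefore do not hold for dim genes, and neither they nor the number of false calls carries over to the data.

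The comparison and the 55 gene lists, written from general knowledge, were chosen with earlier results of these data known, so the lists were described by counts and medians and not tested. Named genes were the 15 largest rises and falls among called genes whose arrays did not overlap, the key members of each list and the 4 called members with the largest change in each direction; not all of them are printed. Alternatives were median centring, quantile normalization, other pseudocounts, filters and thresholds, the mean over probe sets, the 6 arrays alone, no trend, the methods' one-way ANOVA, blocks by replicate number or by run of accessions, and leaving out each array.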

Additional observations from a re-analysis of the deposited data

How the results depend on the processing

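The main counts were 2460 genes higher and 1752 lower in CP, and 5036 and 3025 probe sets. Median centring gave 1585 and 3600 genes and 3188 and 6330 probe sets. Without a fold threshold 3401 genes and 5619 probe sets were lower, and with a 2-fold threshold the counts were 1464 and 489 genes and 2992 and 879 probe sets. Under the other alternatives each count stayed within 1.5 times: 1906 and 2163 genes after quantile normalization, 2382 and 1769 by the methods' one-way ANOVA, 2430 and 1758 from the 6 arrays alone, and 2292 to 2485 higher and 1663 to 1797 lower with 1 array left out. Similar counts do not mean the same genes. Averaging over probe sets kept 2039 of the 2460 rises and 1159 of the 1752 falls, and among the named genes 43 lost and 28 gained a call. It also turned the sign of Tgfbr1 (0.88), Fgfr3 (0.19), Fzd7 (0.71), Pxn (0.59) and Grb10 (0.04), and the cause was not tested.

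Same-numbered CP and ES-LIF(+) arrays did not deviate together (r = 0.015, -0.04 and 0.043), so the numbers pair nothing here, and the fit with a replicate block called 2458 and 1754 genes and 5032 and 3022 probe sets. Signals near the array median limit what can be said of dim genes, whose differences also depend on the pseudocount.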
